A study of Homo sapiens with 4 samples.

Results

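Open chromatin was mapped by ATAC-seq, in which the Tn5 transposase cuts and tags accessible DNA, in HEK293T, a cell line derived from human embryonic kidney that expresses the large T antigen of SV40. The control group (2 libraries) received lipofectamine, and the overexpression group (2 libraries) was transfected with MORC2, carried according to the methods of the study on a plasmid as a fusion with monomeric green fluorescent protein. All cells kept their own wild-type MORC2, and an empty plasmid in the control is not mentioned in the labels. The regions described are control peaks of 500 to 1499 bp on nuclear chromosomes that shared no base with any peak of the overexpression list, called missing wide peaks below. They were chosen by the measured positions in both lists, that is by this absence and by their width, so both are descriptions and neither was tested. There were 4704 of them among 59791 nuclear control peaks, and they made up 18.2% (Wilson interval from 17.8% to 18.7%) of the 25790 control peaks of this width. The control list was the longer, and when its strongest peaks alone were kept, as many as the overexpression list has, 1858 (8.53%) were missing. The wide peaks that did overlap an overexpression peak numbered 21086 and are called shared wide peaks.

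MORC2 is an ATPase of the GHKL family that clamps onto DNA and compacts it in vitro. It works with the HUSH complex, which silences genes and repeats in heterochromatin. For cells overexpressing wild-type MORC2 the study reported minimal changes in accessibility, scored at promoters. It also states that the compaction seen in vitro was not shown to matter for accessibility or transcription in cells. ATAC-seq peaks mark promoters, enhancers and insulator sites, where nucleosomes are displaced by bound factors. The width of a called peak is the stretch over which fragments exceeded the background, so a wide peak can be an extended open region or a tall one with broad flanks. A peak absent from a list had no stretch that passed the caller's thresholds. That is not the same as closed chromatin.

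Each group had 1 deposited list of peaks, so peaks carried no replicate values, and differences between the lists had no replicate check. The intervals given cover counting error only. Within each list the authors' values were complete enough to return the number of fragments stacked at each summit (the pileup) and the background expected there, because the peak caller writes a fold and a Poisson p of the same 2 quantities. The pileup came out whole, within 0.05 fragments, for 100% of the peaks in both lists. Positions are on T2T-CHM13. Genes at these positions were not analysed here, since the gene table used is on GRCh38.

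The lists differed in depth. Promoter counts on nuclear chromosomes summed to 4928862 and 3675088 for control and to 1826951 and 979895 for overexpression, and the summed libraries of both groups stood in a ratio of 0.326 (overexpression to control). Mitochondrial promoters took 51.9% and 55.6% of promoter counts in control and 74.7% and 73.8% in overexpression. The genome-wide background of the lists was 2.30 fragments at a base (control) and 1.15 (overexpression). Their ratio, 0.497, lay between that of the nuclear counts and the 0.591 of all promoter counts, mitochondrial ones included. The part of depth in the absence of the missing wide peaks was not tested. Promoters of 6 genes typical of HEK293 cells, among them LHX1 and VIM, had 9.25 to 148.9 CPM (promoter counts scaled to the nuclear counts of a library) across the 4 libraries. Those of 5 genes of other cell types, such as PTPRC and ALB, had 0.272 to 14.8, and those of 3 ubiquitous genes had 86.7 to 188.8.

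The missing wide peaks were low and only just wide. Their median pileup was 21 fragments (from 9 to 174), against 80 in shared wide peaks, and 54.4% of them reached 20 fragments, against 96.3% of the shared. The median fold at the summit, relative to local background, was 4.49 (interval of the median from 4.42 to 4.54) against 9.86, and a fold of at least 10 was reached by 131 missing peaks (2.78%). The median −log10 p was 9.47 against 53.2. The median width was 609 bp against 862 bp, and 2183 (46.4%) of the missing peaks were under 600 bp, against 16.1% of the shared. Weak peaks were not the whole set, since 1579 (33.6%) had a −log10 q of at least 10 and 517 (10.99%) of at least 20. Among shared wide peaks these shares were 93.0% and 80.0%.

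**Figure D1:**
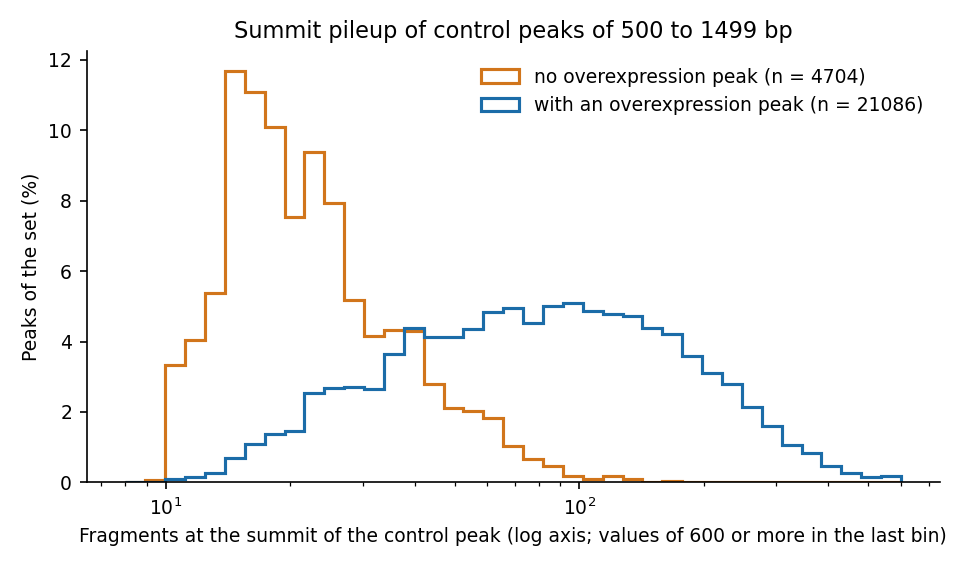
Distribution of the number of fragments at the summit (log axis) for control peaks of 500 to 1499 bp, as the percentage of each set; the outlines are the 4704 peaks without and the 21086 with an overexpression peak. The missing peaks lie mostly to the left, with a median of 21 fragments against 80, and the distributions overlap.

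The background under the summit was also lower. It equalled the genome-wide level of 2.30 fragments in 864 missing wide peaks (18.4%, Wilson interval from 17.3% to 19.5%) and in 4.19% of shared wide peaks. Its median was 3.37 fragments in the former and 7.49 in the latter. At a −log10 p of 8 to 10, 68.8% of wide peaks at the genome-wide background were missing. Of those on a background of 12 fragments or more, 72.2% were. At 10 to 13 these shares were 49.8% and 43.4%, and at 25 to 40 they were 12.2% and 6.65%. Their Wilson intervals overlapped in each of these strata. The summit lay outside the middle 50% of the peak in 34.1% of missing and 15.4% of shared wide peaks, but this moved with the p of the peak. Among peaks with a −log10 p of 10 to 13 the shares were 31.3% and 32.7%, and at 17 to 25 they were 18.3% and 22.1%. At 25 to 40 they were 18.6% and 16.8%, so within these strata the sets lay close and neither was always the higher.

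The share of wide peaks that was missing fell steeply with the strength of the control peak. It was 85.6% (Wilson interval from 82.9% to 88.0%) at a −log10 p under 6 and 47.5% at 10 to 13. It was 7.93% at 25 to 40, and 20 of 9590 (0.209%) at 60 or more. With the wide control peaks split at the quartiles of −log10 p, 3764 of 6448 (58.4%) of the weakest peaks were missing, then 838 of 6447 and 100 of 6447, and 2 of 6448 (0.0310%) of the strongest. No peak with more than 200 fragments was missing (0 of 2578, which allows a share of up to 0.116%).

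Width carried a further difference at the same p. Among wide peaks with a −log10 p of 13 to 17, 43.1% (Wilson interval from 39.1% to 47.1%) of those of 500 to 599 bp were missing and 16.0% (from 11.6% to 21.7%) of those of 1000 to 1499 bp. At 25 to 40 the shares were 15.4% and 1.87%, and at 40 to 60 they were 6.64% and 0.223%. Below 6, 87.2% of the narrower and 15 of 20 of the wider peaks were missing, with intervals that overlapped. At 6 to 8 the shares were 84.2% (from 81.1% to 86.8%) and 68.6% (from 57.0% to 78.2%). At 8 to 10 they were 68.5% and 41.4%, and at 10 to 13 they were 57.7% and 34.3%. At 60 to 80, where the median −log10 p of the classes was 68.5 and 70.3, 10 of 277 peaks of 500 to 599 bp were missing and 0 of 944 of the widest class, which has a Wilson upper bound of 0.405%.

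**Figure D2:**
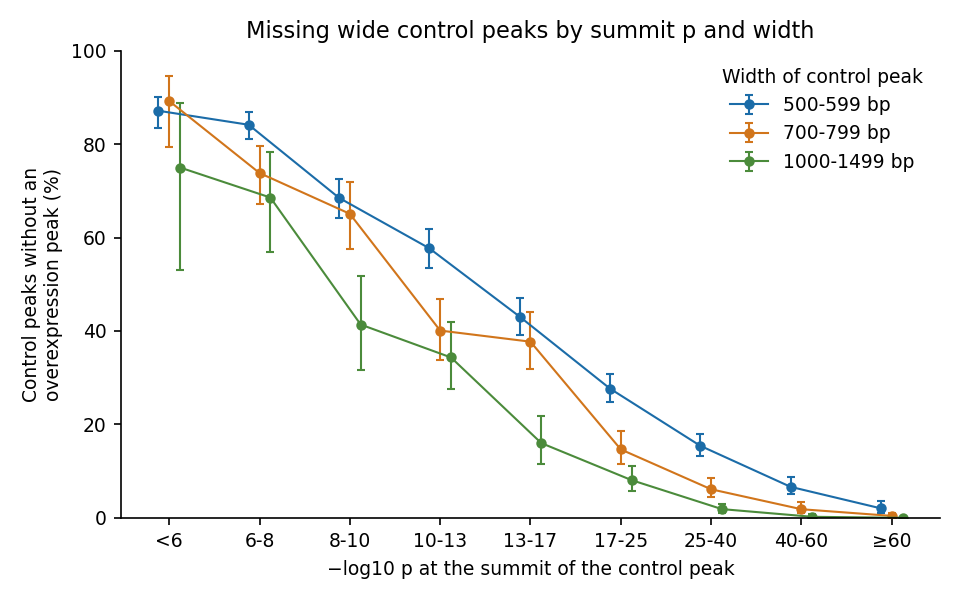
Percentage of control peaks without an overexpression peak, by −log10 p at the summit (x axis, strata) for 3 width classes; bars are 95% Wilson intervals. All 3 lines fall with strength, and the 500 to 599 bp class lies above the 1000 to 1499 bp class in every stratum (43.1% against 16.0% at 13 to 17).

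Summit fragments of both lists, not corrected for depth, were compared in the shared wide peaks that matched 1 overexpression peak each, 20862 in all. The median ratio of summit pileups, overexpression to control, was 0.368. It fell with the height of the control peak, from 0.588 at 20 fragments or fewer to 0.331 above 200. Only low peaks that kept a high ratio could be listed again, and 71.1% of wide peaks of at most 20 fragments were missing, so the ratio at low pileup is a selected one. Above 100 fragments, where 22 of 8492 wide peaks (0.259%) were missing, the median was 0.336 (quartiles 0.300 and 0.376), next to the 0.326 of the nuclear promoter counts. The fold of these tall peaks was 0.777 times that in control and their width 0.898 times.

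**Figure D3:**
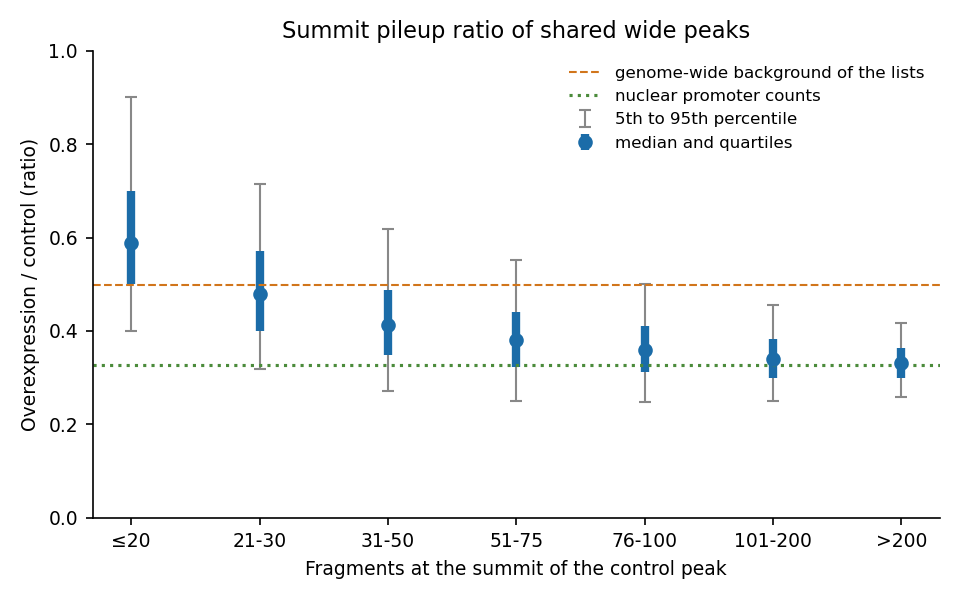
Ratio of summit pileups (overexpression over control) in shared wide peaks by the control pileup; points are medians, thick bars quartiles and thin bars the 5th to 95th percentile. The median falls from 0.588 to 0.331, from above the ratio of genome-wide backgrounds (dashed, 0.497) to that of nuclear promoter counts (dotted, 0.326).

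Above 60 fragments, 189 wide peaks were missing. In the 12997 matched pairs above 60 fragments, the lowest ratio was 0.133, the 1st percentile 0.216 and the median 0.345. The ratio hardly moved with width in these pairs, which hold only peaks listed again, so it is a selected one in each class. Its median was 0.356 for control peaks of 500 to 599 bp and 0.340 for those of 1000 to 1499 bp, while the missing share was 6.97% (82 of 1177) in the first class and 0.320% (20 of 6253) in the second. The wider class was also taller, with a median of 148 fragments against 82. Between 61 and 80 fragments, where the medians were 69 and 71, the missing shares were 9.93% (56 of 564) and 1.87% (13 of 694).

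The widths of the overexpression partners did move with it. No overexpression peak was narrower than 241 bp, and no control peak narrower than 205 bp. For tall control peaks of 500 to 599 bp the partners had a median width of 469.5 bp, 7.06% of them were under 300 bp and the narrowest had 241 bp, the lowest width in the list. For those of 1000 to 1499 bp the median was 1050 bp and 0.130% were under 300 bp. The narrow class therefore ran down to the shortest width listed and the widest class stayed mostly clear of it. The part of this length limit in the missing peaks was not tested.

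**Figure D4:**
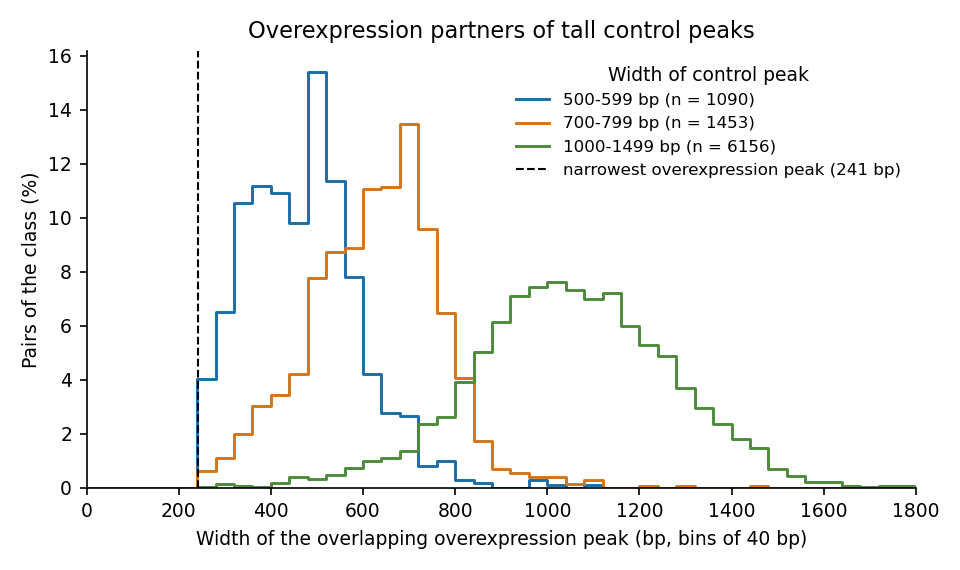
Width of the overlapping overexpression peak (bins of 40 bp) for shared control peaks with more than 60 fragments, in 3 classes of control width, as the percentage of pairs in each class. The 500 to 599 bp class begins abruptly at the dashed line, the narrowest overexpression peak of 241 bp, with a median of 469.5 bp.

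To place each missing peak against this depth, its pileup and local background were multiplied by 0.336, with the background held at no less than 1.15 fragments, and the Poisson p was computed again. This calculation was chosen after seeing the data and leaves out the scatter of fragment numbers. It also lowers the background more than was measured, since the median ratio of local backgrounds in the shared peaks above 100 fragments was 0.395 and that of the genome-wide backgrounds 0.497. Of the 4704 missing peaks, 2833 (60.2%) stayed above 3.41, the lowest −log10 p in the overexpression list. Of the shared wide peaks, 97.7% did. With the background multiplied by 0.395 the number was 2508 (53.3%), and by 0.497 it was 1950 (41.5%). The median rescaled −log10 p of the missing peaks was 3.77, close to that lowest value. At a rescaled value under it, 79.4% of wide peaks were missing. The share was 53.8% from it to 5, 6.72% at 10 to 15 and 0.593% (21 of 3540) at 20 to 30. A rescaled value above 10 was reached by 317 missing peaks (6.74%), against 74.1% of the shared wide peaks. The 317 had a median pileup of 55 in control and a median width of 601 bp, and came from all 23 chromosomes. With the background multiplied by 0.395 there were 259, and by 0.497 there were 167. Above 20 there were 24 (20 and 11 with these backgrounds). The 24 were 0.510% of the missing peaks, against 48.4% of the shared wide peaks. They lay on 15 chromosomes, and 14 of them were under 600 bp wide. All 24 had 63 to 119 fragments in control and would have had 21.2 to 40.04 after rescaling.

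The missing peak with the highest −log10 p, 104.5, was chr12:48852880-48853486, 607 bp wide, with 119 fragments over a background of 6.44 and a fold of 16.1. Its rescaled pileup was 40.04. The nearest overexpression peak lay 12715 bp away. The next, chr3:141158186-141158739, was 554 bp wide with 98 fragments and a −log10 p of 90.1. Its fold was 16.9, and its nearest overexpression peak was 26995 bp away. It was followed by chr5:177383910-177384637, with 115 fragments, a −log10 p of 86.2 and an overexpression peak at 6432 bp. The other 7 of the first 10 were chr14:99290186-99290884, chr17:48751612-48752168, chr11:75635608-75636134, chr16:53914103-53914715, chr17:79182607-79183110, chr19:1512724-1513272 and chr1:36283600-36284231. Their pileups ran from 80 to 113 and their −log10 p from 71.4 to 83.0. All 10 were between 504 and 728 bp wide, and none had an overexpression peak within 5 kb.

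The highest fold of any missing wide peak was 17.9, at chr15:45003751-45004289. It had 58 fragments on a background at the genome-wide level. Folds of 15.0 to 15.9 were found at chr7:128758821-128759327 (66 fragments), chr1:39714988-39715726 (74 fragments), chr13:23788484-23789018 (49 fragments) and chr4:180588807-180589334 (63 fragments). The chromosome 4 peak stood alone, with 59038 bp to the nearest peak of either list.

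A typical missing peak was far weaker. The 5 in the middle of the order by −log10 p, at 9.46 to 9.47, had 17 to 21 fragments and folds of 4.40 to 5.03. They were chr11:17747925-17748449, chr7:30785231-30785794, chr7:129984987-129985723, chr9:148810396-148811493 and chr7:5754556-5755181. Their widths went from 525 to 1098 bp, so peaks of equal strength differed in extent. Multiplied by 0.336 their pileups came to 5.72 to 7.07 fragments, around the 6 of the lowest overexpression peak.

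The distance of missing wide peaks to the remaining peaks varied widely. The nearest overexpression peak was at a median of 14808 bp, and 1759 (37.4%) had one within 10 kb. For 46 (0.978%) one came within 250 bp. Of the 4704, 346 (7.36%) had none within 100 kb, and 10 had none within 1 Mb. The median distance to the nearest other control peak was 8344 bp, against 9826 bp for shared wide peaks. Both control peaks next to a missing wide peak were shared in 1221 cases (26.0%), and neither was in 1247 (26.5%). For shared wide peaks the shares were 31.9% and 20.3%, and 47.8% of all control peaks were missing. Another missing wide peak was adjacent in 804 (17.1%), against 14.3% of shared wide peaks that had a missing wide peak next to them.

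The most isolated was chr7:61780733-61781844, with 12 fragments and 2485339 bp to the nearest overexpression peak. chrX:97292227-97292735 and chr4:134512915-134513471 followed, at 1517961 and 1404167 bp, with 16 and 18 fragments. All 3 lay on a background at the genome-wide level. At the other end, chr10:111717817-111718360 touched an overexpression peak without sharing a base, and chr19:11548616-11549202 and chr14:44066876-44067414 lay 6 and 10 bp from one. Just inside the other side of the rule, 19 shared wide peaks had an overlap of 50 bp or less.

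The densest run held 5 missing wide peaks within 50 kb, between 50466912 and 50513459 on chromosome 22. It contained 8 control peaks, none of which was shared, and the other 3 were under 500 bp. The first 2 of the 5, chr22:50466912-50467441 and chr22:50475235-50475741, had 71 and 38 fragments on high backgrounds of 30.7 and 14.8, with folds of 2.27 and 2.47. The remaining members, chr22:50497820-50498464, chr22:50503852-50504658 and chr22:50512948-50513459, had 40, 49 and 22 fragments and folds of 6.27, 5.31 and 3.90. The backgrounds of these 3 were 5.54, 8.42 and 4.90, lower than those of the first 2.

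Every chromosome of the lists held missing wide peaks, from 63 on chromosome 21 to 607 on chromosome 1. Chromosome 13 stood apart, with 253 of 770 wide peaks missing (32.9%, Wilson interval from 29.6% to 36.3%), against 13.5% (chromosome 19) to 21.9% (chromosome 21) elsewhere. Its wide control peaks were lower to begin with, at a median of 33 fragments against 64 on the other chromosomes. The shares of the −log10 p strata over all chromosomes, applied to the chromosome 13 peaks, came to 241.3 missing peaks, and 253 is 1.05 times that number. Over the 23 chromosomes this ratio ran from 0.857 (chromosome 8) to 1.11 (chromosome 22), and for chromosome 19 it was 1.07.

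**Figure D5:**
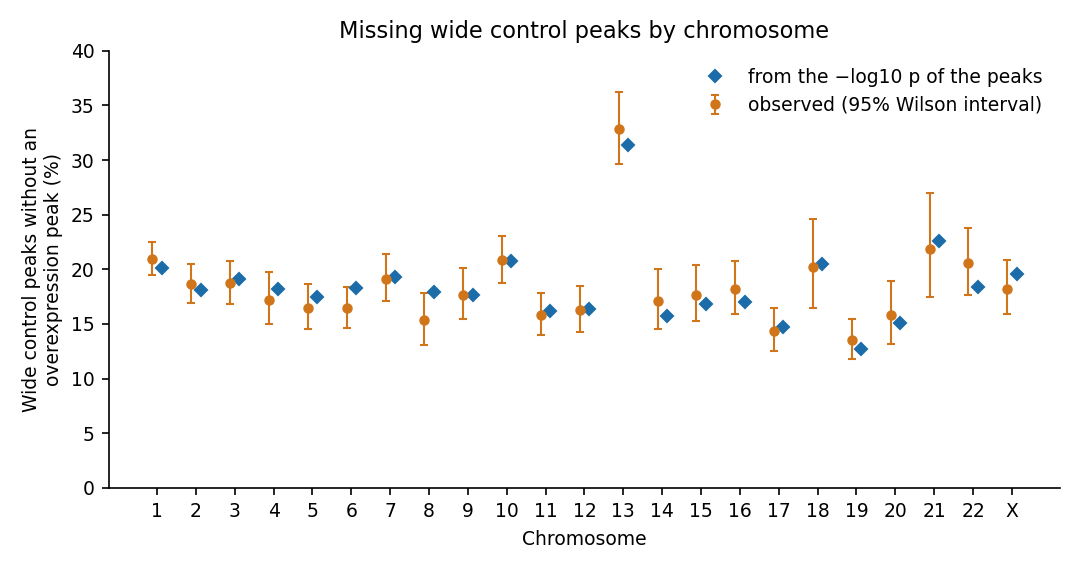
Percentage of control peaks of 500 to 1499 bp without an overexpression peak on each chromosome (circles, bars are 95% Wilson intervals), with the percentage that the −log10 p of its peaks would give from strata over all chromosomes (diamonds). Chromosome 13 is highest in both, with 32.9% observed.

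In bins of 1 Mb, 1759 of the 2610 bins with a wide control peak had a missing one, with a median of 2 and at most 15, on chromosome 17 from 82000001 to 83000000. In 18 of the 1042 bins with at least 10 wide peaks, more than 50% were missing. The 6 bins with the highest share, from 66.7% upwards, were all on chromosome 13, between 61000001 and 92000000. The first of them, from 89000001 to 90000000, had 9 of 10 missing, and the −log10 p strata gave 7.62 for it. These bins were chosen after their values were seen.

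The share changed little across the limits of the rule. Among control peaks of 490 to 499 bp, 332 of 708 (46.9%) were missing, and among those of 500 to 509 bp, 288 of 666 (43.2%). At the upper bound, 10 of 1004 peaks of 1400 to 1499 bp (0.996%) and 6 of 708 peaks of 1500 to 1599 bp (0.847%) were missing. The widest missing peaks were chr19:18920627-18922113 at 1487 bp, with 61 fragments, and chr1:203915175-203916654 at 1480 bp, with 19. Over the whole control list, 47.8% of nuclear peaks were missing, made up of 76.9% of those under 500 bp and 0.543% (16 of 2944) of those of 1500 bp or more. The 23889 missing peaks under 500 bp had a median pileup of 15 and a median fold of 3.93.

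The reverse set was small. Of all 34893 nuclear overexpression peaks, 3315 (9.5%) shared no base with a control peak. Of the 17967 overexpression peaks of 500 to 1499 bp, 200 (1.11%) did not. They had a median of 9 fragments (from 6 to 41), a median fold of 4.16 and a −log10 p of at most 14.0, and 126 were under 600 bp. None reached a fold of 10, whereas 131 missing wide peaks did. Their medians of −log10 p (5.58) and width (568 bp) were also below those of the missing wide peaks, 9.47 and 609 bp. These values come from lists of unlike depth and were not corrected for it. Shared wide peaks above 100 fragments had 0.336 times the pileup and 0.777 times the fold in the overexpression list. The sizes of both sets and their strengths are therefore not on the same scale.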

How the data were processed

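ATAC-seq libraries were trimmed, aligned to T2T-CHM13 with bowtie2, filtered for proper pairs and mapping quality, freed of duplicates with Picard and used for peak calling with MACS2 in paired-end mode by the authors. A Tn5 offset correction was not described, and it would move fragment ends by a few bases only. The deposited lists, 1 per group and read as calls on pooled libraries, give positions, a fold over background at each summit (a ratio) and its −log10 p and −log10 q. The deposited promoter table holds raw counts and served for depth and markers (1 gene of the marker list is not reported here). Of 28775 promoters, 28763 were named from a RefSeq table (GRCh38.p14).

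Mitochondrial rows (6 and 5) were dropped. Pileup k and background b were solved from fold = (k + 1)/(b + 1) and the Poisson upper tail p. The solver was run on 4965 peaks simulated with these same formulas (100% recovered). This checks the inversion only, and not that the peak caller used the formulas. Overlap was at least 1 bp. Shares carry 95% Wilson intervals, medians 95% order-statistic intervals, and a share of 0 the limit of 3 counts. Python 3.11.15, pandas 2.3.3 and scipy 1.17.1 were used. Peaks were named by fixed rules: the 10 highest by −log10 p, the next 5 by fold, 5 at the middle, the 3 farthest from and 3 nearest to an overexpression peak, the densest run and the widest. The set, these rules and the marker lists were chosen with earlier results of these data known.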

Additional observations from a re-analysis of the deposited data

How the results depend on the processing

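No paired analysis was possible because each group has 1 pooled peak list, so the results come from no test and none was computed without a replicate. The promoters holding a missing wide peak were not analysed, since no annotation on T2T-CHM13 was used here, and the alternatives planned for them were not run.

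The number of missing wide peaks (4704, 18.2% of the class, median fold 4.49) was 4658 with overexpression peaks within 250 bp also counted as overlap. Asking that 50% of the control peak be covered gave 26.8% and a median fold of 4.87. A −log10 q of at least 5 gave 23.9% and 5.23 in both lists, and 14.0% and 5.09 in the control list only. A control list cut to the length of the overexpression list gave 1858, 8.53% and 6.24. Widths of 600 to 1499 bp gave 2521 and 12.5%, and widths of 500 to 999 bp gave 24.6%. Each of these settings changes which peaks enter a list or count as overlapping, and no other cause was tested.

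With a pseudocount of 0 the median pileup of the missing peaks was 25.3, but only 8.89% of control pileups then came out whole. Split at the quartiles of fold, 53.6% of the weakest and 0.868% of the strongest wide peaks were missing. The rescaled −log10 p was recomputed with other background factors, added after seeing the data: factors of 0.395 and 0.497 in place of 0.336 moved the number above 20 from 24 to 20 and 11. Within 5 kb, 17.2% of missing wide peaks had an overexpression peak and 30.6% another control peak. Fragments are few in most missing peaks (median 21), so for a single low peak a loss cannot be told apart from lower depth.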

Other observations

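Control peaks under 500 bp without an overexpression peak also reached high values, though their width puts them outside the set described. The 3 with the highest −log10 p were chr7:151599464-151599834 (371 bp wide, 116 fragments, −log10 p 112.1), chr8:81118712-81119140 (429 bp, 112 fragments, 105.1) and chr13:9259348-9259771 (424 bp, 85 fragments, 99.2). The last had a fold of 25.5, above any missing wide peak, and an overexpression peak 5995 bp away. In all, 30 of the 23889 had at least 100 fragments, against 22 of the 4704 missing wide peaks.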
